A study of Mus musculus with 4 samples.

Results

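The genes described here are 10 genes of the p53 and Ras pathways, of 48526 genes in the count tables: Trp53, which encodes the tumour suppressor p53, the Ras gene Hras, and the p53 regulators and targets Mdm2, Cdkn2a, Cdkn1a, Ccng1, Bax, Bbc3, Zmat3 and Trp53inp1. They were chosen by name, with earlier results of these data known. Their reads on the gene's own strand were followed in 4 liver tumour libraries of C57BL/6 mice. The 2 AKK libraries came from mice given 5000000000 colony-forming units of Akkermansia muciniphila (Akk), a mucin-degrading gut bacterium, by mouth, and the 2 PBS libraries from mice given phosphate-buffered saline. In both groups feeding began 2 weeks before an MCD diet (deficient in methionine and choline), went on through 2 weeks of that diet, and paused for 6 days after luciferase-labelled RIL-175 cells were implanted into the liver. The comparison asks whether feeding Akk changed these genes in the tumours. The labels give neither the age nor the sex of the animals, and do not say whether the biological replicates of a group are tumours of separate mice, so any p-value refers to the spread among these 4 libraries.

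RIL-175 is a single mouse hepatoma line, known as a product of p53-deficient liver progenitor cells carrying an activated Hras, which is why these genes have a special place in these tumours. This is background knowledge and not in the labels. p53 is a transcription factor that is held at low levels by the ubiquitin ligase Mdm2, is released from Mdm2 by the Arf protein of Cdkn2a, and switches on genes of cell cycle arrest and cell death. In cells without p53 the p53 targets keep a basal expression from other transcription factors. Ras proteins are small GTPases that pass growth signals to the RAF, MEK and ERK kinases. A tumour is a mixture of implanted cells and host cells, so fewer cells of a type and less RNA per cell cannot be told apart in any value below.

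To show where p53 could bind near the starts of these genes, the 250 bases before each annotated start were searched for the p53 half-site, a 10-base palindromic element that p53 binds in pairs. Only exact matches to RRRCWWGYYY were counted, where R is A or G, W is A or T and Y is C or T. RefSeq (GRCm38.p6) gave 12 such windows for 8 of the 10 genes, Zmat3 and Trp53inp1 not among them. A half-site lay in 5 of the 12 windows, those of Trp53, Cdkn1a, Mdm2, Bax and Ccng1, and in 7.13% of the 32851 windows of all genes. Those windows are printed 5′ to 3′ with the half-sites in capitals, and the Hras window with the GC box GGGCGG of either strand (GGGCGG or CCGCCC) in capitals.
Trp53 (chr11:69580109-69580358, + strand): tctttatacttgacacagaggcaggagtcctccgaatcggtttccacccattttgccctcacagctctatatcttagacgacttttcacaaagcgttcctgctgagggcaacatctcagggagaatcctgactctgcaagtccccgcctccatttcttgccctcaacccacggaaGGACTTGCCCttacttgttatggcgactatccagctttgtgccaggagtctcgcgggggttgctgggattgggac
Cdkn1a (chr17:29090729-29090978, + strand): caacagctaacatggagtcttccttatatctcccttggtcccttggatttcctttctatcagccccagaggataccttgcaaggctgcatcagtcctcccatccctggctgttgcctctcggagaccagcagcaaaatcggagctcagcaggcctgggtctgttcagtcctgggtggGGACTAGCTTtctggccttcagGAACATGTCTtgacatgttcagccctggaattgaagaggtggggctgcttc
Mdm2 (chr10:117710759-117711008, - strand): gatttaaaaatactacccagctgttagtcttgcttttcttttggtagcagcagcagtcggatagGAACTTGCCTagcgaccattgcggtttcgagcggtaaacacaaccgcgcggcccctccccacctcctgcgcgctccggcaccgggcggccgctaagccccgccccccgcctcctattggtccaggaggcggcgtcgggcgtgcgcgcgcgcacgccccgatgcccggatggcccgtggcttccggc
Bax (chr7:45466899-45467148, - strand): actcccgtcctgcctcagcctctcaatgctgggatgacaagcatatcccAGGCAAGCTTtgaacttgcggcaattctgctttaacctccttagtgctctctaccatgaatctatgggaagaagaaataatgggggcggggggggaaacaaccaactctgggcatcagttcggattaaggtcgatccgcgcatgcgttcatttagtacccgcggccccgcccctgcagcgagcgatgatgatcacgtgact
Ccng1 (chr11:40755287-40755536, - strand): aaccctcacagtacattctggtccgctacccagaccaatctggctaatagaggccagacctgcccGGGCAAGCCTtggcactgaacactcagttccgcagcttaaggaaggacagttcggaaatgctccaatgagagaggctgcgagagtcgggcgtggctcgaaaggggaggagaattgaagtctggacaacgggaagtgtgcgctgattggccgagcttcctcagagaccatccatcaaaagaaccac
Hras (chr7:141194005-141194254, - strand): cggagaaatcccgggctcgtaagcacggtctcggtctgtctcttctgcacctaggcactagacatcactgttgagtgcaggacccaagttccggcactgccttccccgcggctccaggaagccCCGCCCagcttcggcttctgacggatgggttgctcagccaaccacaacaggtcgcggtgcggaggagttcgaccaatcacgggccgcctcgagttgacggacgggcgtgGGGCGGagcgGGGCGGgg

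The Cdkn1a window was the only one of the 12 with a pair of half-sites at most 13 bases apart. They started 73 and 51 bases before the upstream start of the gene, with 12 bases between them. A pair at most 13 bases apart lay in 0.0639% of all windows. The bases directly after the second half-site of Cdkn1a, tgacatgttc, miss the pattern only in their first letter and were not counted. The marked pair is therefore not the only one possible there. The half-site of Trp53 itself started 75 bases before its start, that of Mdm2 186, that of Bax 201 and that of Ccng1 185 bases before. The Hras window held the GC box 3 times and no half-site. A GC box lay in 8 of the 12 windows, those of Mdm2 and Bax included, and in 32.7% of all windows. These are matches of letters in a short window, and nothing is drawn from them about binding.

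The 4 libraries held 48912489 to 59027227 reads on genes, and the 10 genes had 391 to 8562 reads each per library. The hepatoma label was checked on epithelial markers. Keratin genes were abundant, with Krt8 at 2511 and 2610 CPM (counts per 1000000 reads) in AKK 1 and AKK 2, against 1443 and 2632 CPM in PBS 1 and PBS 2. Epcam (2.25 and 3.37 against 0.131 and 0.0210 CPM) and Gpc3 (0.0177 and 0.0685 against 0.731 and 0.336 CPM) were low beside them. Epcam had 127 and 197 reads in AKK, against 7 and 1 in PBS. Of the 9 epithelial markers, 2 were higher in both AKK libraries, Epcam among them, and 2 lower, Gpc3 among them. Summed over the 9 epithelial markers, AKK 1 and AKK 2 read 9188 and 10454 CPM, and PBS 1 and PBS 2 read 5376 and 8963 CPM. Endothelial and hepatocyte markers also moved with the groups. The 7 endothelial markers were all lower in both AKK libraries (27.2 and 30.4 CPM summed, against 91.5 and 66.3 CPM). Of the 12 hepatocyte markers, 10 were higher in both AKK libraries, and whether host cells or implanted hepatoma cells made them is not known. Alb read 156 and 25.4 CPM in AKK 1 and AKK 2, against 0.2999 and 0.988 CPM in PBS 1 and PBS 2, and Fgb 75.4 and 50.8, against 0.112 and 0.189 CPM. The sums over the 12 (691 and 722 against 318 and 756 CPM) overlapped because of Apob (164 and 468 against 241 and 584 CPM) and Hnf4a (48.7 and 119 against 74.9 and 168 CPM). The 12 immune markers summed to 88.3 and 99.4 CPM in AKK, against 147 and 115 CPM in PBS, but went both ways singly. In both AKK libraries, 5 of them were lower and 2 higher than in both PBS libraries. Fibroblast markers (970 and 1457 against 2124 and 747 CPM) overlapped between the groups, and skeletal muscle markers stood out in PBS 1 (2.42 and 2.62 against 263 and 9.02 CPM). The share of mitochondrial genes among the reads on genes was 3.92 and 2.33% in AKK, against 1.78 and 1.64% in PBS, and unmapped reads were 8.97 and 9.92% of all reads in AKK, against 12.3 and 12.1% in PBS. The part of these differences in the values below was not tested.

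None of the 10 genes passed the test between AKK and PBS tumours. All 10 were kept by the filter on low counts, 6 had a positive and 4 a negative log2 fold change, and edgeR's quasi-likelihood test with Benjamini-Hochberg adjustment over 17479 genes gave adjusted p-values of 0.305 to 0.900 (n = 2 per group). That test called 0.00572% of all genes. At an unadjusted p under 0.05 it held 1 of the 10, Zmat3, where 15.3% of all genes did. DESeq2 called 0 of the 10 as well (5.02% of all genes), and 1 had an unadjusted p under 0.05 there, where 16.3% of all genes did. The AKK and PBS values did not overlap in 6 of the 10 genes, 3 higher (Trp53, Hras and Cdkn2a) and 3 lower (Mdm2, Ccng1 and Zmat3). Over all genes this held for 51.4%, 26.7% higher and 24.7% lower, so the share among these genes was near the background. All fold changes are AKK minus PBS, with the standard error (SE) and 95% interval of the edgeR fit. CPM values are scaled by TMM, a correction for library composition.

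**Figure D1:**
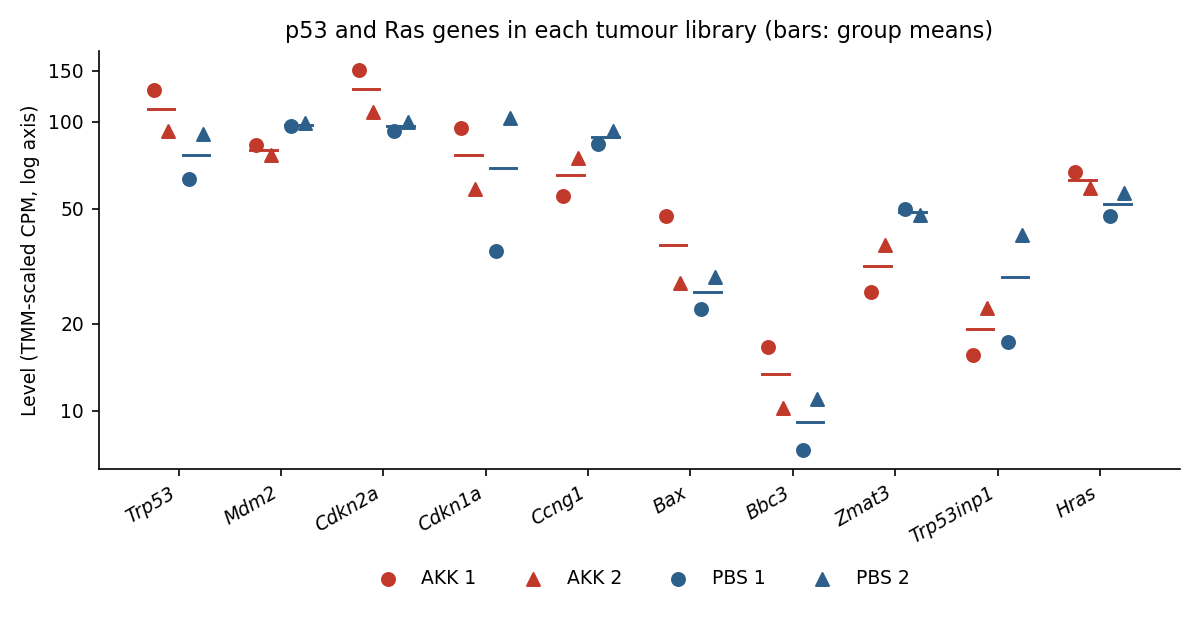
Level of each of the 10 genes in the 4 libraries (TMM-scaled CPM, log axis). Red symbols are AKK, blue symbols PBS, circles replicate 1, triangles replicate 2, and short bars the group means. Trp53, Hras and Cdkn2a lay higher in both AKK libraries, Mdm2, Ccng1 and Zmat3 lower, and the PBS libraries differed most from each other in Cdkn1a (35.7 and 103 CPM).

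Trp53 (ENSMUSG00000059552.13) was read at substantial levels in tumours of a line known as p53-deficient. AKK 1 and AKK 2 had 129 and 92.9 CPM (7293 and 5422 reads), and PBS 1 and PBS 2 had 63.6 and 90.6 CPM (3391 and 4308 reads). Both AKK values were the higher ones, but AKK 2 and PBS 2 were nearly level, and AKK 1 and PBS 1 made most of the difference. The log2 fold change was 0.53 (SE 0.26, interval -0.13 to 1.18, edgeR adjusted p = 0.392). It was 0.27 without AKK 1 and 0.29 without PBS 1, but 0.74 without AKK 2 and 0.77 without PBS 2. Per kilobase of exon, the mean level of Trp53 stood at the 87.0th percentile of the genes kept. The counts are sums over the whole gene and do not show which exons were read, nor whether tumour or host cells made the RNA. Reads on the opposite strand, where Wrap53 starts beside Trp53, were 1.58 and 3.21% of the reads by strand in AKK, against 5.17 and 4.92% in PBS. They are not in the Trp53 values.

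The regulators of p53 among the 10 genes are Mdm2 (ENSMUSG00000020184.14), which marks p53 for destruction and is itself a p53 target, and Cdkn2a (ENSMUSG00000044303.6), the locus of the CDK inhibitor p16 and of Arf. Mdm2 read 83.0 and 77.0 CPM in AKK 1 and AKK 2, against 96.8 and 98.8 CPM in PBS 1 and PBS 2. It was the steadiest of the 10, with a ratio of 1.28 between its highest and lowest library, and its log2 fold change of -0.29 (SE 0.17, interval -0.71 to 0.13) missed the threshold in edgeR (adjusted p = 0.448). Cdkn2a read 151 and 108 CPM in AKK, against 92.8 and 100.03 CPM in PBS. AKK 1 stood above the other libraries, which lay close together. The log2 fold change of 0.43 (SE 0.22, interval -0.12 to 0.98, edgeR adjusted p = 0.407) was 0.17 without AKK 1 and 0.65 without AKK 2. The transcripts of p16 and Arf share exons and are summed in a gene count, so they cannot be told apart here.

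The arrest genes differed in how steady they were. Cdkn1a (ENSMUSG00000023067.13), the gene of the CDK inhibitor p21 and the best known p53 target, read 95.3 and 58.7 CPM in AKK 1 and AKK 2, against 35.7 and 103 CPM in PBS 1 and PBS 2. The groups overlapped completely, with PBS 1 lowest and PBS 2 highest, a ratio of 2.88 between those 2 libraries of 1 group. The log2 fold change of 0.15 (SE 0.51, interval -1.10 to 1.41, edgeR adjusted p = 0.900) turned to -0.42 without PBS 1 and to -0.23 without AKK 1, and was 1.08 without PBS 2. Ccng1 (ENSMUSG00000020326.7), the gene of cyclin G1, which guides a phosphatase to Mdm2, read 55.4 and 75.1 CPM in AKK, against 83.6 and 93.2 CPM in PBS. Both AKK values were below both PBS values. The log2 fold change was -0.44 (SE 0.22, interval -0.97 to 0.09, edgeR adjusted p = 0.385), with -0.23 without AKK 1 and -0.68 without AKK 2.

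The 2 genes of the cell death pathway behaved alike from library to library. Bax (ENSMUSG00000003873.11), which permeabilises the outer mitochondrial membrane, read 47.3 and 27.6 CPM in AKK 1 and AKK 2, against 22.6 and 29.0 CPM in PBS 1 and PBS 2. Bbc3 (ENSMUSG00000002083.13), the gene of the BH3-only protein Puma, read 16.6 and 10.2 CPM in AKK, against 7.33 and 10.98 CPM in PBS. In both genes AKK 1 was highest and PBS 1 lowest, AKK 2 lay just under PBS 2, and the groups overlapped. Bax had a log2 fold change of 0.54 (SE 0.31, interval -0.22 to 1.29, edgeR adjusted p = 0.440), which was 0.10 without AKK 1 and 0.87 without AKK 2. Bbc3 had 0.55 (SE 0.37, interval -0.35 to 1.45, edgeR adjusted p = 0.490), which was 0.16 without AKK 1 and 0.85 without AKK 2. On the opposite strand of Bbc3 lay 4.18 to 6.90% of its reads by strand, the highest share among the 10 genes.

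Of the remaining targets, Zmat3 (ENSMUSG00000027663.12), the gene of an RNA-binding zinc finger protein, had the smallest p of the 10. It read 25.7 and 37.5 CPM in AKK 1 and AKK 2, against 50.1 and 47.6 CPM in PBS 1 and PBS 2. The PBS libraries were close to each other and both AKK libraries lay below them. The log2 fold change was -0.63 (SE 0.24, interval -1.21 to -0.05, unadjusted p = 0.0385, edgeR adjusted p = 0.305), with -0.38 without AKK 1 and -0.93 without AKK 2. Trp53inp1 (ENSMUSG00000028211.11), the gene of a stress-induced nuclear protein with a role in autophagy, read 15.6 and 22.7 CPM in AKK, against 17.3 and 40.6 CPM in PBS. Only PBS 2 stood apart, so the groups overlapped. Its log2 fold change of -0.60 (SE 0.43, interval -1.66 to 0.47, edgeR adjusted p = 0.526) was -1.09 without PBS 1 and turned to 0.12 without PBS 2.

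**Figure D2:**
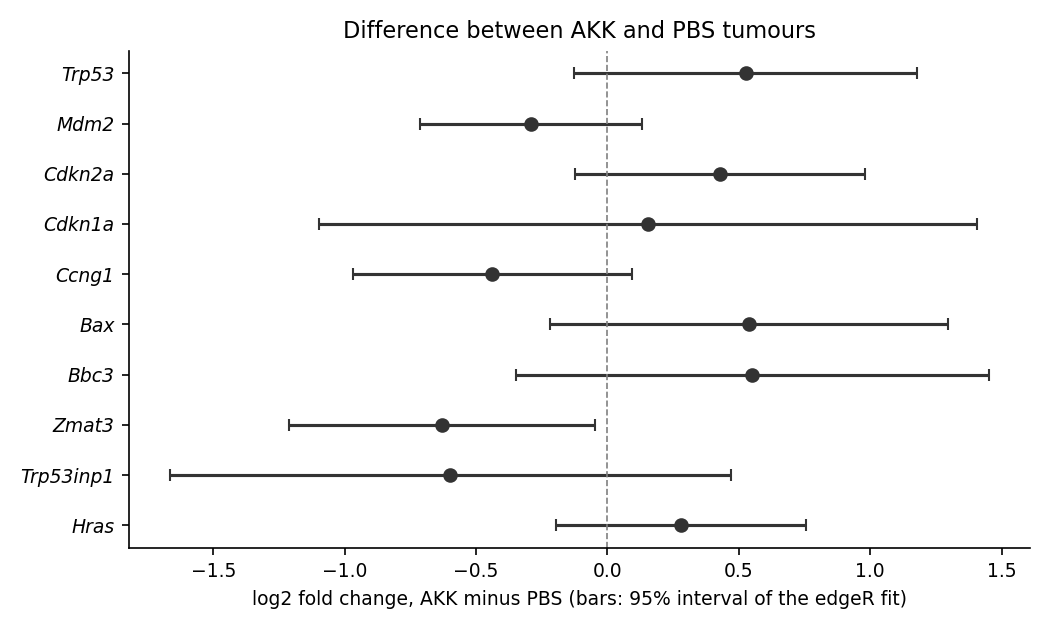
Log2 fold change of each gene, AKK minus PBS (points), with the 95% interval of the edgeR fit (bars) and a dashed line at 0. Of the 10 intervals, that of Zmat3 (-1.21 to -0.05) leaves out 0 before adjustment over all genes, and that of Cdkn1a (-1.10 to 1.41) is wide.

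Hras (ENSMUSG00000025499.18), the Ras gene known to be activated in the implanted line, varied little. It read 67.1 and 59.0 CPM in AKK 1 and AKK 2, against 47.2 and 56.7 CPM in PBS 1 and PBS 2. Both AKK values were the higher ones, with AKK 2 close to PBS 2. The log2 fold change was 0.28 (SE 0.19, interval -0.20 to 0.76, edgeR adjusted p = 0.506), with 0.15 without PBS 1 and 0.39 without PBS 2. How far reads of the introduced Hras, whose sequence the labels do not give, were counted at mouse Hras is unknown. Nras, a Ras gene of the same signalling pathway, read 289.6 and 339.7 CPM in AKK, against 287 and 269 CPM in PBS, with a log2 fold change of 0.18 (SE 0.21, edgeR adjusted p = 0.691). Per kilobase of exon, the mean of the 4 libraries was 55.5 CPM for Nras, against 15.4 CPM for Hras.

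Levels of different genes were compared per kilobase of exon, with lengths from GENCODE M21. Cdkn2a led by far, at 129 and 92.3 CPM per kilobase in AKK 1 and AKK 2, against 79.2 and 85.3 in PBS 1 and PBS 2, and its mean stood at the 97.7th percentile of the genes kept. Trp53, Ccng1, Cdkn1a, Bax, Mdm2 and Hras followed with means of 23.2, 21.9, 20.6, 20.1, 17.5 and 15.4 CPM per kilobase. From Trp53 to Hras, each pair of neighbours in that order changed places between libraries. Trp53, for instance, was above Ccng1 in AKK 1 (31.9 against 15.8) and below it in PBS 1 (15.7 against 23.8). Cdkn1a ranged from 10.03 to 28.9 over the libraries. Bbc3, Trp53inp1 and Zmat3 came last at 5.31, 3.71 and 3.52, and the neighbours among them changed places between libraries too. Of the 10 genes, 9 stood above the median of the genes kept.

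Among the 10 genes and over all protein-coding genes, the log2 fold change tended to be lower in longer genes. Over 14054 protein-coding genes, which are not independent replicates, the log2 fold change fell with exon length (Spearman's rho -0.40), and over the 10 genes rho was -0.71. Genes of up to 2000 bp had a median log2 fold change of 0.35, those over 2000 to 4000 bp 0.13, those over 4000 to 6000 bp -0.04 and those over 6000 bp -0.27. The same trend lay between the AKK libraries, AKK 1 minus AKK 2 (rho -0.39), and hardly between the PBS libraries (0.07, with the opposite sign). This view was added after the values were seen.

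The short genes Cdkn2a (1172 bp) and Bax (1576 bp) lay 0.08 and 0.19 above the median of their length class, and Cdkn1a (3553 bp) and Hras (3733 bp) 0.02 and 0.15 above theirs. The long genes Zmat3 (11435 bp) and Trp53inp1 (6475 bp) lay 0.35 and 0.32 below theirs. Less the median of the class, the log2 fold changes were -0.35 and -0.32, in place of -0.63 and -0.60. Trp53 (4045 bp) and Ccng1 (3512 bp) lay farthest from the trend, at 0.56 above and 0.57 below the medians of their classes. Bbc3 (2124 bp) lay 0.42 above the median of its class and Mdm2 (5083 bp) 0.25 below. Trp53 and Bbc3 are just past the lower edges of their classes (4000 and 2000 bp), and the next shorter classes had higher medians (0.13 and 0.35). The distances of these genes, and their order, therefore depend on where the classes were cut. Whether length itself bears on any of these differences was not tested.

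**Figure D3:**
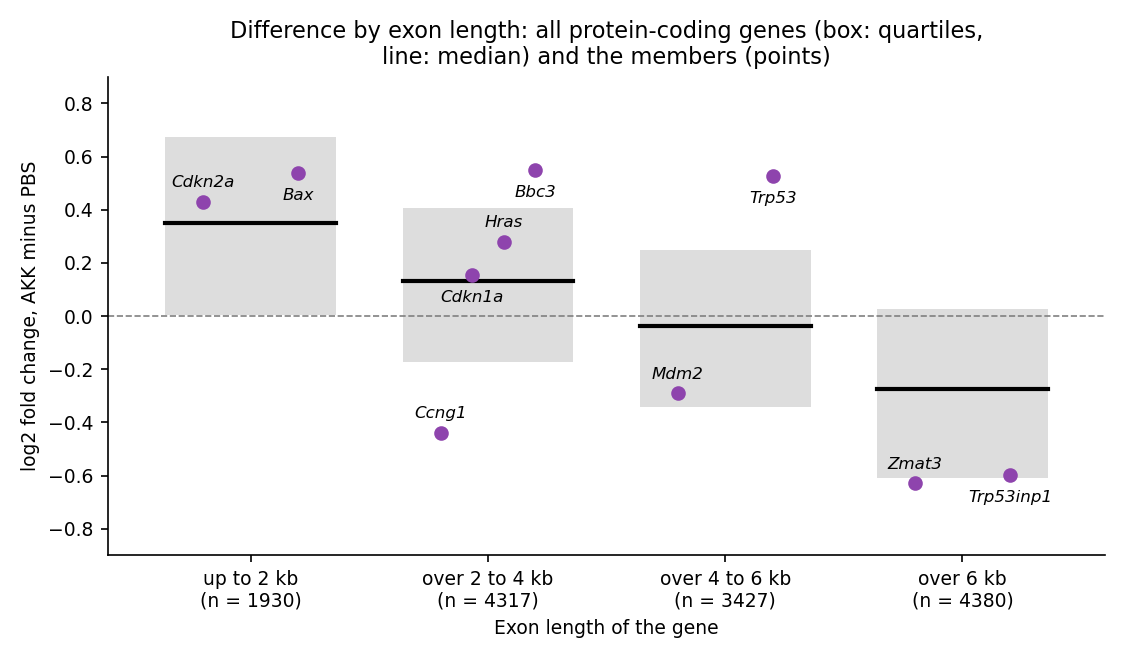
Log2 fold change, AKK minus PBS, by exon length. Grey boxes are the quartiles and black lines the medians of all protein-coding genes kept (0.35 in the shortest and -0.27 in the longest class), and purple points are the 10 genes. Trp53 and Bbc3, both just past the lower edge of their class, lie above the box of that class, and Ccng1 and Zmat3 below theirs.

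Around the 10 genes, 8 lists of pathway genes were described, with 170 distinct genes, 166 of them kept. edgeR called 0 of these at an adjusted p of 0.05, and 8 were higher and 20 lower at an unadjusted p under 0.05, 16.9% of the kept genes, against 15.3% of all genes. DESeq2 called 8 of the 166, which is 4.82%, against 5.02% of all genes. In simulated data, whose spread depended only on a gene's level, DESeq2 made more false calls than edgeR (39.7 against 8.33 on average over 3 simulations). Such data lack the length trend of these libraries and differences in spread between genes of like level. They therefore do not rank the tools here. The main test was edgeR, and the adjusted p-values of DESeq2 below are given as description only. The median log2 fold change of all genes kept was 0.02.

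Of the genes that control p53, 9 of 12 had a negative log2 fold change, as had 8433 of all 17479 genes. Their median was -0.29, which was -0.15 without AKK 1, and 4 of 12 were lower at an unadjusted p under 0.05 in edgeR (6.70% of all genes were higher and 8.62% lower at that level). The DNA damage kinases had the smallest p-values. Atm read 8.81 and 21.0 CPM in AKK 1 and AKK 2, against 32.1 and 39.0 CPM in PBS 1 and PBS 2 (edgeR adjusted p = 0.278), with AKK 1 far below the others. Atr read 35.0 and 32.7, against 44.1 and 53.5 CPM (0.298 in edgeR), and Prkdc, the catalytic subunit of DNA-dependent protein kinase, 17.3 and 24.2, against 30.3 and 34.8 CPM (0.304). Mdm4, the partner of Mdm2, read 111 and 114, against 152 and 145 CPM. The p53 relatives Trp63 and Trp73 were below the filter, with 1 and 0 reads in AKK against 24 and 4 in PBS for Trp63, and 1 and 3 against 0 and 0 for Trp73. The kept genes of this list were long, with a median exon length of 6548.5 bp, against 4387.5 bp over all protein-coding genes.

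The wider p53 targets showed no common direction, with 23 of 51 positive, 28 negative and a median of -0.07 (-0.15 without PBS 1 and 0.02 without PBS 2). At an unadjusted p under 0.05 in edgeR, 1 was higher and 4 were lower. Perp, a p53 and p63 target of cell junctions, read 2.46 and 2.65 CPM in AKK 1 and AKK 2, against 13.4 and 5.19 CPM in PBS 1 and PBS 2 (adjusted p = 0.240 in edgeR and 0.0115 in DESeq2). Trp53i11 read 5.77 and 4.23, against 11.9 and 10.4 CPM (0.235 in edgeR and 0.0175 in DESeq2), and Apaf1, the core of the apoptosome, 32.3 and 40.5, against 61.1 and 51.6 CPM (0.274 in edgeR). Both AKK libraries lay below both PBS libraries in each of these 3, which were named for their small p. Over the list, the groups did not overlap in 39.2% of the kept genes (7 higher and 13 lower), against 51.4% of all genes. In the list of BCL2 family and caspase genes, 7 of 19 were positive and the median was -0.04 (-0.11 to -0.02 with a library left out). Cytochrome c (Cycs), which binds Apaf1, read 83.8 and 68.2, against 53.6 and 51.5 CPM (edgeR adjusted p = 0.292). The BH3-only gene Bmf read 25.4 and 50.2, against 21.5 and 21.8 CPM (0.336).

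Cell cycle genes next to p16 and p21 went both ways. The CDK inhibitor and RB list had 9 of 18 positive and a median of -0.01 (-0.07 to 0.04 with a library left out), with E2f1, a transcription factor of S phase held by RB, at 71.1 and 57.4 CPM in AKK 1 and AKK 2, against 46.9 and 44.8 CPM in PBS 1 and PBS 2 (edgeR adjusted p = 0.321). Rbl2, a relative of RB, read 48.1 and 61.6, against 79.8 and 64.1 CPM, and Cdk4, the kinase that p16 inhibits, 321 and 308, against 262 and 250 CPM. Cdkn2b, the neighbour of Cdkn2a and gene of p15, read 51.5 and 52.4, against 44.9 and 50.3 CPM. Mitotic genes known to fall when p53 is active were positive in 12 of 16, with a median of 0.13, which was 0.01 without AKK 1, 0.03 without PBS 2, 0.21 without PBS 1 and 0.23 without AKK 2, and 2 were higher at an unadjusted p under 0.05. These were survivin (Birc5), which read 84.1 and 62.0, against 49.5 and 48.8 CPM, and the kinase gene Plk1, which read 124 and 89.5, against 75.6 and 65.8 CPM. Their adjusted p-values in edgeR were 0.301 and 0.308. Ccnb2 read 103 and 70.1, against 73.6 and 58.2 CPM, with overlapping groups.

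On the Ras side, 20 of 25 genes of the Ras family and its exchange and GTPase-activating factors were negative, with a median log2 fold change of -0.26 (-0.41 without AKK 2), and 7 were lower and 1 higher at an unadjusted p under 0.05. The exchange factor Rasgrf2 read 7.38 and 13.6 CPM in AKK 1 and AKK 2, against 27.5 and 46.6 CPM in PBS 1 and PBS 2 (log2 fold change -1.82, SE 0.40, adjusted p = 0.191 in edgeR and 0.00122 in DESeq2). The GTPase-activating gene Rasa2 read 38.1 and 40.9, against 66.9 and 66.8 CPM (0.192 in edgeR and 0.0271 in DESeq2). Mras, a Ras relative, read 12.6 and 16.9, against 33.1 and 23.8 CPM (0.245 in edgeR). These 3, named for their small p, lay below both PBS libraries in both AKK libraries. Over the list, the groups did not overlap in 68% of the kept genes (5 higher and 12 lower), against 51.4% of all genes. The median exon length of this list was 6218 bp and that of the RAF, MEK and ERK genes 6845 bp, both in the class whose median was -0.27. That of the ERK pathway targets, whose median log2 fold change was also negative (-0.25), was 3104 bp, in the class whose median was 0.13.

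Of the RAF, MEK and ERK genes 8 of 11 were negative, with a median of -0.29, which was -0.13 without PBS 2 and -0.45 without PBS 1. The kinase Braf read 28.5 and 31.8 CPM in AKK 1 and AKK 2, against 54.0 and 53.8 CPM in PBS 1 and PBS 2 (adjusted p = 0.188 in edgeR and 0.0152 in DESeq2). Mapk3, the gene of ERK1, went the other way at 196 and 153, against 108 and 130 CPM (0.321 in edgeR), and Rps6ka3, an ERK-activated kinase, read 126 and 161, against 232 and 196 CPM (0.314). The ERK pathway targets had 12 of 19 negative and a median of -0.25, which was 0.05 without PBS 2 and -0.14 without AKK 1. The immediate early gene Egr1 read 145 and 99.1, against 267 and 391 CPM (log2 fold change -1.43, SE 0.30, adjusted p = 0.187 in edgeR and 0.000971 in DESeq2). The growth factor gene Ereg read 68.0 and 54.8, against 122 and 97.5 CPM (0.216 in edgeR and 0.0435 in DESeq2), and Spry4, a feedback inhibitor of Ras signalling, 107 and 84.6, against 157 and 164 CPM (0.2299). Dusp6, the ERK phosphatase most used as a readout of the pathway, read 309 and 297, against 219 and 315 CPM, with overlapping groups.

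**Figure D4:**
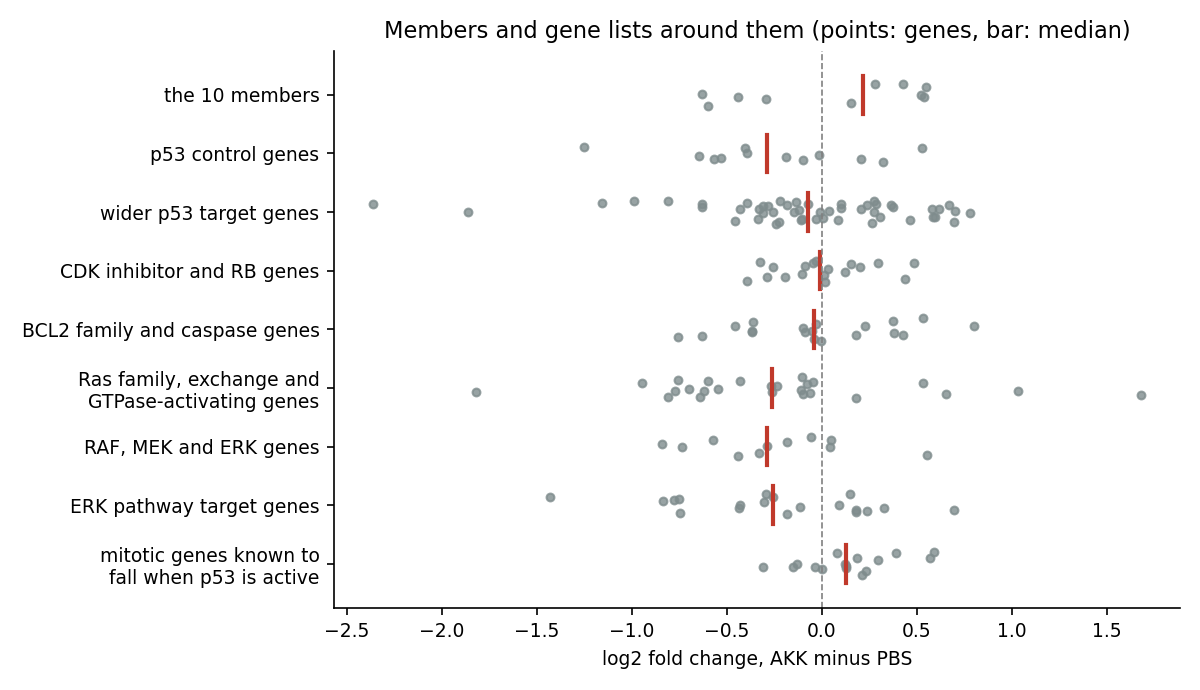
Log2 fold change, AKK minus PBS, of the kept genes of each list (points, spread vertically for view) with the median of the list (red bar). The 10 genes have a median of 0.22, the p53 control, Ras, RAF and ERK target lists lie between -0.29 and -0.25, and edgeR called none of the genes shown at an adjusted p of 0.05.

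Many genes ran like Trp53 and Hras over the 4 libraries. By the Euclidean distance between log2 CPM profiles centred on each gene's mean, the nearest of 11211 genes to Trp53 were Sod1, Il3ra and Kyat1 (0.04, 0.04 and 0.05), and 99 genes lay within 0.2. Nearest to Hras were Aimp2, Parp2 and Tnfrsf12a (0.01, 0.03 and 0.03), with 568 genes within 0.2. With 4 libraries such likeness is common.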

How the data were processed

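RNA of 4 mouse liver tumours (2 AKK, 2 PBS) was sequenced as pairs of 151 bp reads, per the labels' protocols. The authors deposited 1 table of unnormalised counts per tumour, laid out as STAR writes gene counts. Tools named in the submitters' processing notes are STAR (2.5.2) and RSEM (1.2.31); no build or annotation release is given in the sources used here. Column 3 was used, the counts on a gene's own strand, since it took 95.4 to 96.2% of the strand-assigned reads. Summary rows that name no gene (27.6 to 31.4% of reads) were left out. Symbols matched 48058 of 48526 identifiers.

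AKK and PBS were compared with edgeR 4.0.16 in R 4.3.3 (quasi-likelihood test in its legacy form, TMM, filterByExpr, group as the only term, prior count 0.125, two-sided, Benjamini-Hochberg over the 17479 genes kept). The script was tested on simulated data. Alternatives were other scalings and filters, the unstranded column, the replicate number as a block, leaving out each library, DESeq2 1.42.0 and limma-voom (limma 3.58.1). Exon lengths are unions of GENCODE M21 exons, which 17416 of the kept genes had. The 10 genes and the lists were chosen with earlier results of these data known. From each list the text names the 3 genes with the smallest p, and always Nras, Mdm4, Trp63, Trp73, Cdkn2b and Dusp6. A planned measure and a gene of that rule are not reported here. Nearest genes to Trp53 and Hras were sought among named protein-coding genes whose mean log2 CPM reached 1. The cell type markers named singly were picked after their values were seen. Replicates were separate libraries, with r = 0.981 in log2 CPM across genes in each group.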

Additional observations from a re-analysis of the deposited data

How the results depend on the processing

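Over 12 alternatives each, the log2 fold changes of the 10 genes kept their direction and their side of the threshold in 117 of 120 values, and the lowest adjusted p was 0.152 (Zmat3). The 3 exceptions turned the direction: Cdkn1a was -0.42 without PBS replicate 1 and -0.23 without AKK replicate 1 (range -0.42 to 1.08 over the libraries left out), and Trp53inp1 was 0.12 without PBS replicate 2 (range -1.09 to 0.12). The cause was not tested. The count of the 10 genes past the threshold was 0 in every alternative run. The number of the 10 genes without overlap between groups was 6 in every alternative that left no library out. With a library left out, 1 group is a single value and any gene separates more easily, so that count is not compared. Over all genes, the count of calls was 1 in the reported fit, 3 with upper-quartile scaling and at an adjusted p of 0.1, 631 without a filter, 878 with DESeq2 and 0 with limma-voom. It was 0 to 324 with each library left out, where the lone library was assumed to vary like the others. With the replicate number as a block it was 209, with 0 of the 10 genes. Deviations of same-numbered libraries correlated at -0.04. The labels state no pairing or batch by number, and whether the numbers mark one was not tested. Of 96 list medians under the alternatives, 8 moved by more than the spread between replicates: those of the p53 control genes without either AKK library, of the RAF, MEK and ERK genes with upper-quartile scaling (-0.23) and without each library, and of the ERK targets without PBS 2. With 2 libraries per group, few degrees of freedom limit every test.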
